A study of Mus musculus with 10 samples.

Results

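Transcripts of 44 transcription factors that pattern organs other than blood were followed in Ezh2-deleted and control blood progenitors. The genes were taken by name as classic Polycomb targets outside blood, and their probes were found through the RefSeq accessions on the array. All 44 of the 20972 named genes were present, with 55 of the 55681 probes: 33 genes had 1 probe and 11 had several. Ezh2 is the catalytic subunit of Polycomb repressive complex 2 (PRC2), which methylates lysine 27 of histone H3. In embryonic stem cells and in most differentiated tissues, PRC2 holds regulators of other lineages silent, and it is typically found at promoters that are rich in CpG dinucleotides. Ezh1 is the other methyltransferase that can serve in the complex.

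RNA came from LSK cells (Lineage-negative, Sca-1+, c-Kit+), the fraction of bone marrow in which stem and early progenitor cells of blood are found, sorted as CD45.2 cells from transplanted C57BL/6 mice. KO cells carried Cre-Ert;Ezh2fl/fl, a tamoxifen-inducible Cre with floxed Ezh2, and WT cells carried Cre-Ert alone, so that both had the Cre and both received tamoxifen. Times are counted after transplantation and tamoxifen. The KO group held 8 one-colour Agilent arrays: 1 at 3 months with no disease, and 7 at 9-12 months. Of these 7, 1 was labelled with a mixture of diseases, 2 with myelodysplastic syndrome (MDS), 3 with MDS and myeloproliferative neoplasm together (MDS/MPN) and 1 with a disease that was not determined. The label of MDS/MPN array 1 adds TC and that of array 3 adds CMMoL. The WT group held 1 array at 3 months and 1 at 9-12 months, both with no disease. The 6 KO arrays of MDS, MDS/MPN and undetermined disease carry identifiers of their own and are called single mice here. The series text gives 3 mice at 3 months for 1 array per genotype, and pooling is not given. The p-values therefore measure the spread between these arrays. At 9-12 months no WT array carried a disease label, so genotype and disease cannot be told apart there.

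Each value below is a log2 signal over the 75th percentile of its array, so that 0 is the level below which 75% of the probes of that array lay. A gene counts as measured on an array when at least 1 of its probes was called well above background there, and its brightest probe stands for it. Probes differ in how brightly they bind, so a level is set only against the same probe on other arrays. Between 32.5% and 47.5% of probes were well above background per array, the 75th percentile lay between 78.7 and 301.7 intensity units, and 0 probes were saturated. The 2 arrays labelled 3 months lay on 1 slide and the other 8 arrays on another, so slide and time cannot be told apart. In the value table that accompanies the scans, the columns of 4 arrays, both WT, the 3-month KO and the mixed KO, carry the opposite time labels. By that table the scan called mixed KO here is the disease-free KO array at 3 months, and the scan called 3-month KO is the mixed one. The times and diseases used here are those of the scans, and every statement on time and on the mixed array depends on them. The genotype labels did not differ. The single Ezh2 probe read 2.13 to 3.35 over the 10 arrays, and all 8 KO arrays differed from both WT arrays by 0.13 ± 0.38 with slide as a block (SE, limma adjusted p = 0.997). Whether this probe lies in the deleted part was not tested, so it does not check the labels. Of 8 LSK markers, 7 or 8 were measured on each array, among them Kit at 3.86 to 5.23 and Ly6a, which encodes Sca-1, at 4.10 to 5.68. Of 7 markers of mature lineages, 3 to 6 were measured per array. Measured on all 10 arrays were the haemoglobin gene Hba-a1 at -2.20 to 5.59, Elane at 2.63 to 7.92 and Itgam at 4.39 to 5.78.

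The promoters of these genes were CpG-rich as a group, whether or not a transcript was measured. In a window of 300 bases, 250 before a transcript start and 50 after it, 32 of the 44 genes had a RefSeq sequence (GRCm38.p6). The dinucleotide CG, which reads the same on both strands, occurred 9 to 50 times in them with a median of 23.5. At least 10 occurrences were found in 31 of the 32 (96.9%), against 44.4% of all 27025 genes with such a sequence, whose median was 7.0. The 12 matched genes that were measured on at least 1 array had a median of 23.5, and the 20 matched genes that were measured on none had a median of 23.0. The median was 20.0 over 65 other developmental factors, 18.5 over 31 blood transcription factors and 24.0 over 11 PRC2 subunits. A CG is contained in 94.6% of all such windows, and its count says nothing of what binds there. The 250 bases before the start are printed for 5 genes, with each CpG in capitals. Those of Nkx2-2 precede a start inside its gene interval (chr2:147176485-147195434), and those of the other 4 end at the gene interval. Msx2, Nkx2-2 and Sox1 were measured on all 10 arrays, Irx3 was measured on 1 array alone but above the 75th percentile of that array, and Barx1, chosen after the counts were seen, had the most CpGs and was measured on no array. The windows are chr13:53472781-53473030 on the minus strand for Msx2, chr2:147186403-147186652 on the minus strand for Nkx2-2, chr8:12395269-12395518 on the plus strand for Sox1, chr8:91801655-91801904 on the minus strand for Irx3 and chr13:48662786-48663035 on the plus strand for Barx1.
Msx2: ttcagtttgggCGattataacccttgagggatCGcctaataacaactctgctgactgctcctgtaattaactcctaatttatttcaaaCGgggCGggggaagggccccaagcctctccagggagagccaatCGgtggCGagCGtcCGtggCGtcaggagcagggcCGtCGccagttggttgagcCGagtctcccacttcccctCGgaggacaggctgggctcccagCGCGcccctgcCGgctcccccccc
Nkx2-2: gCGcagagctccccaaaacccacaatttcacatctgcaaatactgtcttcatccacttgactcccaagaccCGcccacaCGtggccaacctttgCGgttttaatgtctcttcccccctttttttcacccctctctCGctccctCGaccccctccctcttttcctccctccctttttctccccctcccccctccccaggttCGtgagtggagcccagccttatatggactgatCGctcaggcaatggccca
Sox1: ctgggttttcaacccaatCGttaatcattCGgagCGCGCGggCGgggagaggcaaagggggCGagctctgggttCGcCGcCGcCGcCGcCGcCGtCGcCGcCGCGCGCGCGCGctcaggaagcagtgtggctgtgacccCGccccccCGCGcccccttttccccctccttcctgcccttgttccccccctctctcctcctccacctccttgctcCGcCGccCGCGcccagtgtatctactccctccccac
Irx3: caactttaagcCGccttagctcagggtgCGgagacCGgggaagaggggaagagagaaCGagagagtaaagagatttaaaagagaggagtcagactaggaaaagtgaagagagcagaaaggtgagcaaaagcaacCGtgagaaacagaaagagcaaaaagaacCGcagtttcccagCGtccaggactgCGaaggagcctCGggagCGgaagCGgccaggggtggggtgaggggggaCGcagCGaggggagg
Barx1: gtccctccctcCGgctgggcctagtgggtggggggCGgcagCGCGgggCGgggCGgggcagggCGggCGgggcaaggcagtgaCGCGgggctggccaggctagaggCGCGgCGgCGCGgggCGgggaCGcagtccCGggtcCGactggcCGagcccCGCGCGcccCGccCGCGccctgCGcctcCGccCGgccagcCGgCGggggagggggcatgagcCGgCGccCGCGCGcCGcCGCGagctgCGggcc
Within these 250 bases Msx2 held 16 CpGs, Nkx2-2 held 8, Sox1 held 29, Irx3 held 13 and Barx1 held 40. In the whole 300-base window the counts were 22 for Msx2, 17 for Nkx2-2, 37 for Sox1, 14 for Irx3 and 50 for Barx1.

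**Figure D1:**
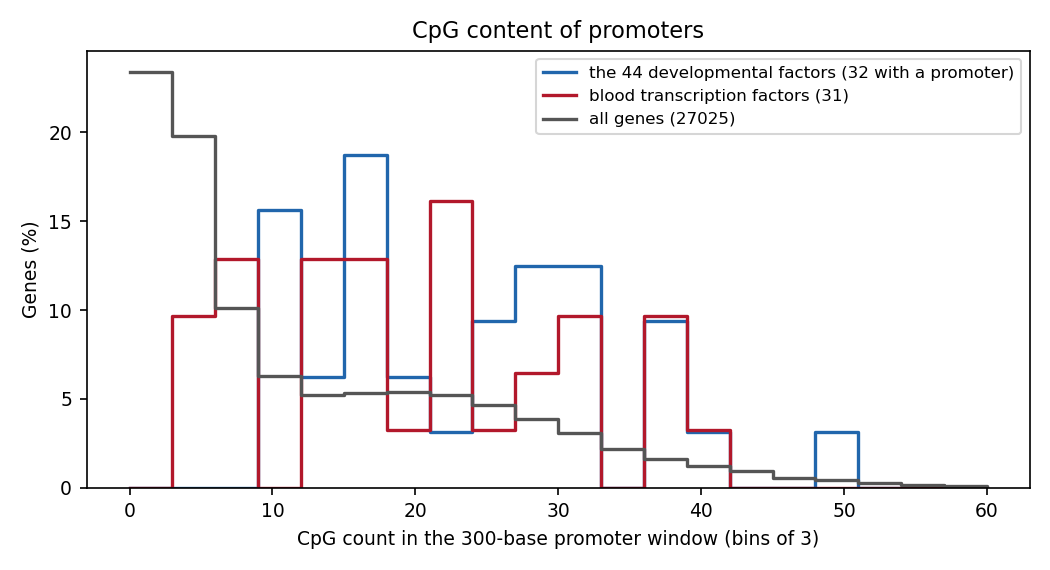
Share of genes (%, y axis) by the number of CpGs in the 300-base promoter window (x axis, bins of 3) for the 32 developmental factors with a promoter sequence, 31 blood transcription factors and all 27025 genes. The developmental factors start at 9 CpGs, whereas the largest share of all genes lies in the lowest bin.

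Most of the 44 factors were measured neither in KO nor in WT cells. Only 13 of the 44 (29.5%) were measured on at least 1 of the 10 arrays, against 69.7% of all named genes, and 31 were measured on none. All 10 arrays measured 3 of the 44 (6.82%), against 46.4% of all named genes, and 7 (15.9%) were measured on exactly 1 array, against 7.66% of all named genes. A list of 100 other developmental factors gave 31 on at least 1 array, 14 on exactly 1 and 8 on all 10. All 40 factors of a list of blood transcription factors, such as Lyl1 and Lmo2, were measured on at least 1 array, and 37 on all 10.

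The number of developmental factors measured did not separate the genotypes. On the KO array at 3 months 7 of 44 were measured (15.9%), where 57.7% of all named genes were. The mixed KO array also measured 7 (15.9%), with 54.3% of all named genes. The MDS arrays measured 3 and 4 (6.82% and 9.09%), with 56.0% and 56.3% of all named genes.
The 3 MDS/MPN arrays measured 3, 6 and 4 (6.82%, 13.6% and 9.09%), beside 49.4%, 61.5% and 54.0% of all named genes, and the undetermined array measured 5 (11.4%), beside 53.3%. The WT arrays measured 6 at 3 months (13.6%) and 4 at 9-12 months (9.09%), where 59.2% and 54.5% of all named genes were measured. The WT counts lay within the KO range of 3 to 7. Each of the 10 arrays measured a smaller share of these 44 genes than of all named genes, and 38 to 40 of the 40 blood transcription factors. In these sorted populations, fewer cells with a transcript and less transcript per cell cannot be told apart.

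**Figure D2:**
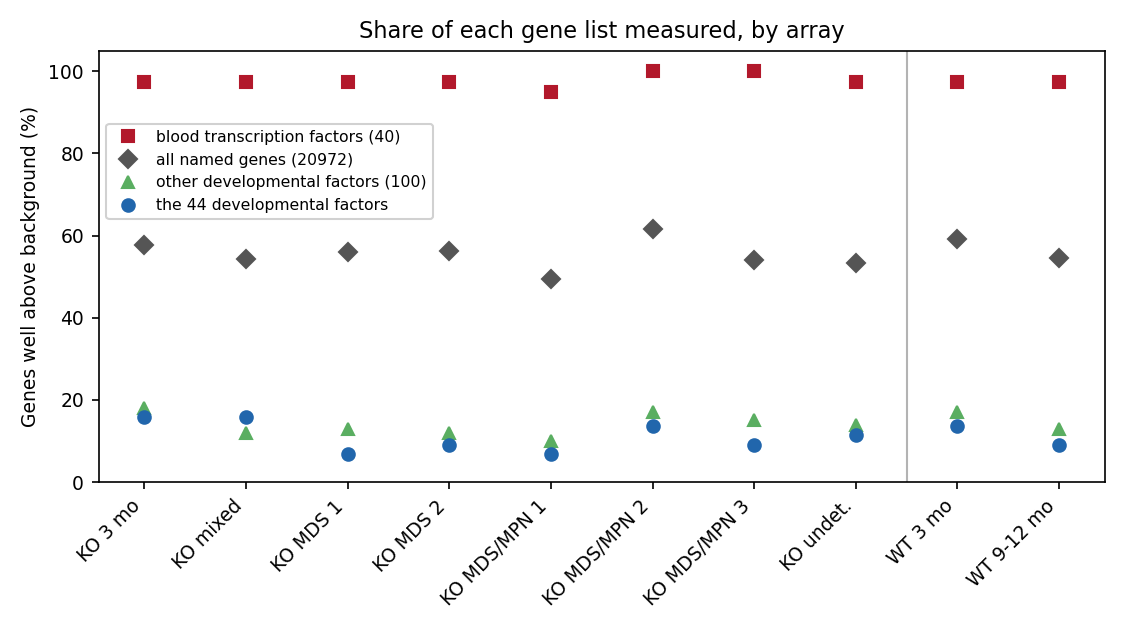
Share of genes well above background (%, y axis) on each of the 8 KO and 2 WT arrays (x axis), for 40 blood transcription factors, all 20972 named genes, 100 other developmental factors and the 44 developmental factors. The 44 factors stay between 6.82% and 15.9% on KO and WT arrays, whereas all named genes lie between 49.4% and 61.5%.

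The 3 to 7 factors measured per array had a median of -1.87 on the KO array at 3 months and -0.86 on the mixed KO array. On the MDS, MDS/MPN and undetermined arrays it ran from -2.71 to -0.19. On the WT arrays it was -2.13 at 3 months and -0.53 at 9-12 months. These medians are over different genes on each array and are not compared. The lowest signal called well above background lay between -3.69 and -1.51 per array, or 8.8 to 31.4 intensity units, and signals under this level did not get the call.

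By family, 6 of 20 homeobox genes were measured on at least 1 array, Msx2 and Nkx2-2 on all 10. The same held for 2 of 4 forkhead genes, 1 of 5 T-box genes and 1 of 6 basic helix-loop-helix genes. It also held for 1 of 3 SOX genes, 1 of 4 zinc finger genes and 1 of the 2 paired box genes without a full homeobox. The plot of values by gene shows that 7 of the 13 had a measured signal on 1 array alone.

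**Figure D3:**
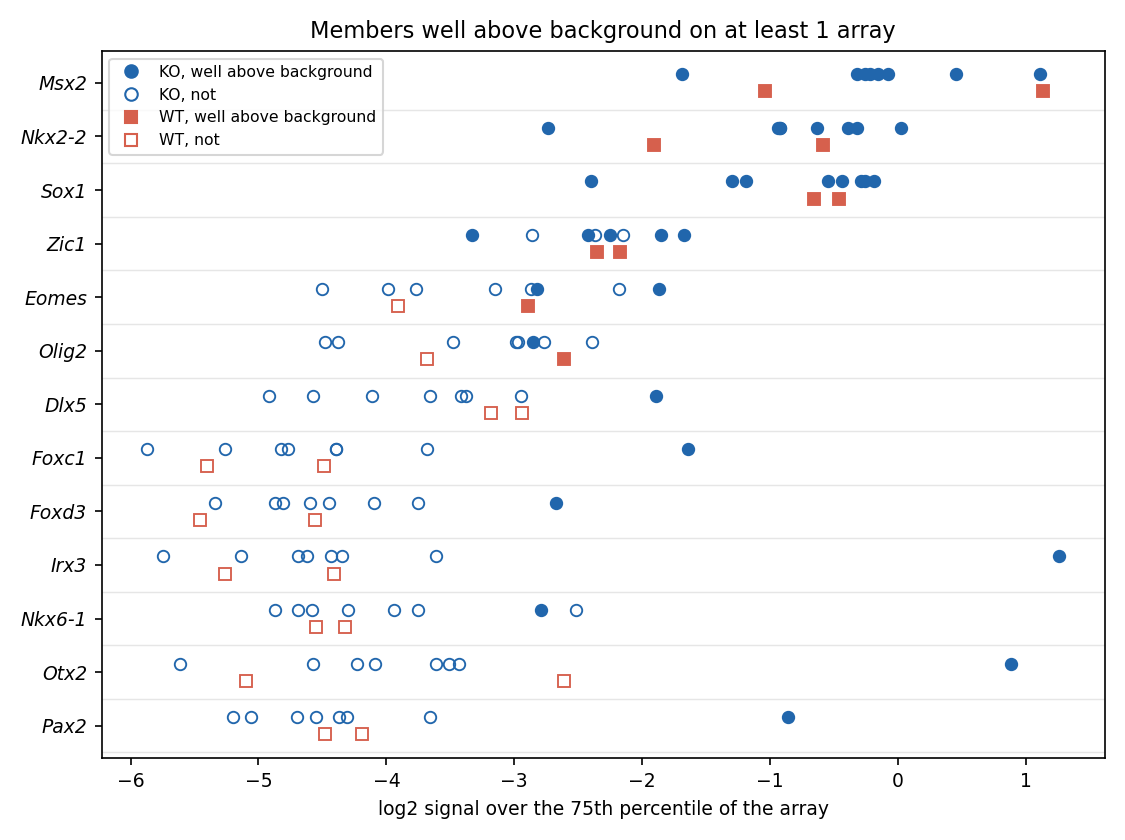
Log2 signal over the 75th percentile of the array (x axis) for the 13 developmental factors measured on at least 1 array (y axis), with 8 KO arrays as circles and 2 WT arrays as squares. Filled symbols are well above background and open symbols are not, and the isolated filled circles at 1.26 for Irx3 and 0.88 for Otx2 come from 1 KO array each.

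Msx2 (chr13:53466881-53472780) encodes a homeodomain repressor that acts downstream of bone morphogenetic proteins in skull, tooth and limb. It read 0.45 on the KO array at 3 months, 1.11 on the mixed KO array, -0.08 and -0.16 on the MDS arrays, -0.26, -1.69 and -0.22 on the MDS/MPN arrays and -0.32 on the undetermined array, against -1.04 and 1.13 on the WT arrays at 3 and 9-12 months. Its highest values were shared by the mixed KO array and the WT array beside it on the slide, and the WT arrays held both a high and a low value, so the groups overlapped. The 3-month KO array was 1.49 above the WT array of its slide, whereas the mixed KO array was within 0.02 of the WT array of its slide, a difference of -0.02. Its neighbour in function, Msx1, was measured on no array.

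Nkx2-2 (chr2:147176485-147195434) encodes a homeodomain factor of the ventral neural tube and of endocrine cells of the pancreas. It read -0.92 on the KO array at 3 months, -0.63 on the mixed KO array, -0.92 and -0.94 on the MDS arrays, -0.39, -2.74 and 0.02 on the MDS/MPN arrays and -0.32 on the undetermined array, against -1.91 and -0.59 on the WT arrays at 3 and 9-12 months. The WT values lay inside the KO range, whose low end was MDS/MPN array 2. Its other probe was well above background on no array, with -6.03 to -3.86, so the 2 probes disagree on whether the gene is expressed. Its relatives Nkx2-1, which patterns lung and thyroid, and Nkx2-5, a heart factor, were measured on no array.

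Sox1 (chr8:12395519-12399555) encodes an early factor of neural progenitors. It read -0.29 on the KO array at 3 months, -1.19 on the mixed KO array, -0.19 and -1.30 on the MDS arrays, -0.44, -2.40 and -0.55 on the MDS/MPN arrays and -0.26 on the undetermined array, against -0.66 and -0.46 on the WT arrays at 3 and 9-12 months. The WT values lay inside the KO range. The other Sox1 probe was well above background on no array, with -4.20 to -2.58. Sox9, of cartilage, and Sox17, of endoderm, were measured on no array.

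Msx2, Nkx2-2 and Sox1 were each lowest on KO MDS/MPN array 2 after scaling. That array had the highest 75th percentile, 301.7 intensity units, and 39.7% of the 14295 features well above background on all 10 arrays were lowest there, as were 29.5% of the 1883 such features with a mean between -1 and 0. Without scaling, that array gave 93.4, 45.2 and 57.1 intensity units for Msx2, Nkx2-2 and Sox1. Over the other 7 KO arrays the ranges were 74.1 to 267.2, 41.7 to 98.2 and 54.1 to 126.8, against 45.9 to 263.5, 25.0 to 79.7 and 59.7 to 87.6 on the WT arrays. As given, the value of this array was thus the lowest of the 10 for none of the 3 genes, as the plot with and without scaling shows. For Nkx2-2 it was still the lowest of its own slide, as the lower values of 25.0 and 41.7 came from the 3-month arrays. For Sox1 only the mixed KO array, at 54.1, lay lower. The part of the scaling in these low values was not tested further.

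**Figure D4:**
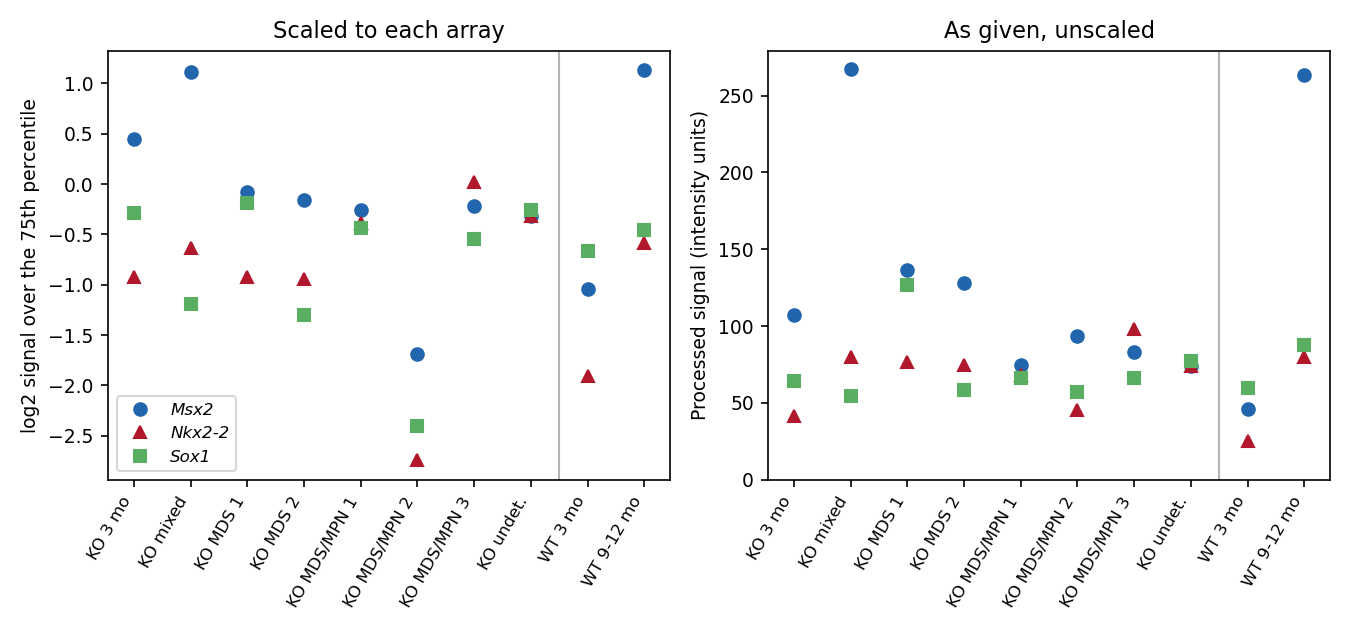
Signal of Msx2, Nkx2-2 and Sox1 on the 8 KO and 2 WT arrays, on the left as log2 over the 75th percentile of the array and on the right as processed signal in intensity units. KO MDS/MPN array 2 is the lowest point for all 3 genes on the left (-1.69, -2.74 and -2.40) and for none on the right.

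Zic1 (chr9:91358058-91365768) encodes a zinc finger factor of the dorsal neural tube and cerebellum. It was well above background on 7 arrays, 5 KO and both WT. It read -2.25 on the KO array at 3 months, -2.37 on the mixed KO array, -2.86 and -2.42 on the MDS arrays, -2.15, -3.33 and -1.85 on the MDS/MPN arrays and -1.67 on the undetermined array, against -2.35 and -2.17 on the WT arrays at 3 and 9-12 months. The mixed array, MDS array 1 and MDS/MPN array 1 gave no call well above background. The WT values lay inside the KO range, and the other Zic1 probe was well above background on no array.

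Eomes (chr9:118478186-118486132) encodes a T-box factor of early mesoderm and trophoblast that is also made by natural killer cells and activated T cells, so for this gene the label of a factor outside blood does not fully hold. It was measured at -1.87 on the KO array at 3 months and -2.82 on KO MDS/MPN array 2, against -2.89 on the WT array at 3 months, and on no other array. Without a call it read -2.18 on KO MDS/MPN array 3 and -2.87 on the undetermined KO array, both above that WT value. The WT value was 12.7 intensity units, and no array of the other slide called a signal under 19.9 units. The lack of a call there thus depends in part on the detection limit. On the 3-month slide the KO array was 1.02 above WT. The other Eomes probe was well above background on no array, with -5.69 to -2.61. It read -5.05 on that KO array and -5.21 on that WT array, and was highest on KO MDS array 1. Markers of natural killer and T cells were measured for 10 of 12 genes on the KO array at 3 months, 9 on MDS/MPN array 2 and 8 on the WT array at 3 months, with summed levels of 170, 48.2 and 77.4 times the 75th percentile. Over the other 7 arrays 6 to 9 were measured, with sums up to 199. Nkg7, Cd4, Cd3e and Prf1 were measured on all 10 arrays, and Ncr1 and Cd8a on none. Their part in the Eomes signal was not tested.

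Olig2 (chr16:91225550-91228677), a basic helix-loop-helix factor of oligodendrocytes and motor neurons, was measured on the slide of the 3-month arrays alone, at -2.85 on the KO array against -2.61 on the WT array. The KO array was thus 0.24 below WT (-0.24 on the log2 scale). The dimmest called signal was 8.8 and 9.56 intensity units on these KO and WT arrays, and 19.9 to 31.4 on those of the other slide. Olig2 read 10.9 and 15.4 units on these arrays. On the other slide it read 5.54 to 21.0 units without a call, so its absence there depends on the detection limit. Nkx6-1 (chr5:101659184-101664711), a homeodomain factor of insulin-producing cells and motor neurons, was measured on the 3-month KO array alone, at -2.79 against -4.32 on the WT array, where it was not well above background. With the WT value set at the dimmest signal that array called well above background, the KO value was at least 1.42-fold higher. This is a comparison of 1 array with 1 array and has no replicate check. The undetermined KO array read higher for Nkx6-1 without a call, at -2.52, or 16.2 intensity units against 11.4 on the 3-month KO array.

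The mixed KO array carried 4 developmental factors that no other array measured. Otx2 (chr14:48656781-48667644), a homeodomain factor of forebrain and retina, read 0.88 there, or 227.7 intensity units. It read -5.61 to -3.43 on the other 7 KO arrays and -5.10 and -2.61 on the WT arrays. Pax2 (chr19:44746601-44838269), a paired box factor of kidney and inner ear, read -0.86 there, with -5.20 to -3.66 on the other 7 KO arrays and -4.19 and -4.48 on the WT arrays.
The third was Foxc1 (chr13:31806646-31810635), a forkhead factor of mesenchyme that in mouse bone marrow is made by stromal niche cells, with -1.64, against -5.87 to -3.68 on the other 7 KO arrays and -5.40 and -4.49 on the WT arrays. Dlx5 (chr6:6877801-6882068), a homeodomain factor of bone and of the branchial arches, read -1.89, against -4.92 to -2.95 on the other 7 KO arrays and -2.94 and -3.18 on the WT arrays. For each of the 4 genes, the mixed array was the highest of the 10. The 4 were singled out because this array alone measured them, so their high place on it is no separate result.

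Against the WT array of its slide, with the dim WT value again set at the dimmest called signal, the mixed array was at least 9.35-fold higher for Otx2, 2.81-fold for Pax2, 1.63-fold for Foxc1 and 1.37-fold for Dlx5. These are single arrays with no replicate check, and the folds rest on the same choice of genes. This array is the one whose scan is labelled with several diseases together, whereas by the value table it is the disease-free KO array at 3 months. Of all named genes, 106 (0.505%) were measured on the mixed array and on no other, against 4 of the 44. Of the 106, 23 read at or above the 75th percentile. The WT array of that slide had 101 genes measured on it alone, and 23 of them also read that high. The other Pax2 probe was well above background on no array. Dlx6, the neighbour and close relative of Dlx5, and Otx1, the relative of Otx2, were measured on no array. Of 14 stromal markers 5 were measured on the mixed array and 5 on the WT array of its slide, with summed levels of 28.5 and 30.2, and 4 to 6 over all arrays, with 11.3 to 40.9. Lepr, Pdgfrb, Sparc and Col1a2 were measured on all 10 arrays, with Lepr at 4.44 on the mixed array and 4.59 on that WT array. Col1a1, Col3a1, Acta2, Postn, Dcn, Pdgfra and Lum were measured on no array. Of 12 endothelial markers 6 were measured on the mixed array and 6 on that WT array, with summed levels of 49.4 and 55.2. Over all arrays 4 to 9 were measured, with 16.6 to 103. Kdr, Vwf, Pecam1 and Plvap were measured on all 10 arrays, and Cdh5, Flt4 and Sox18 on none. The part of such cells in the 4 signals was not tested.

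Irx3 (chr8:91798511-91801654), an Iroquois homeodomain factor that patterns neural tube and heart, was measured on the undetermined KO array alone. It read 1.26 there, or 222.0 intensity units, against -5.75 to -3.61 on the other 7 KO arrays and -5.26 and -4.41 on the WT arrays. The undetermined array was thus at least 12.2-fold above the WT array of its slide, again as 1 array against 1. Irx3 was likewise singled out because this array alone measured it. Of all named genes 149 (0.710%) were measured on this array and no other. Of these, 38 read at or above the 75th percentile, where the 10 arrays had 0 to 38 such genes. At or above the value of Irx3 lay 12 of them, Irx3 included. Irx5, which lies in the same Iroquois gene cluster, was measured on no array and read -3.47 on this one. Of the stromal and endothelial markers 5 and 6 were measured on this array, with summed levels of 31.5 and 61.6. Foxd3 (chr4:99656299-99658671), a forkhead factor of neural crest, was measured on KO MDS/MPN array 2 alone at -2.67, a value under the dimmest called signal on the WT array of its slide, so no fold is given. That array had 442 genes measured on it alone, the most of the 10 arrays, against 81 to 230 on the others.

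The 31 factors measured on no array read -6.04 to -1.13. They included the homeodomain factors Pax3 and Pax7 of muscle progenitors, Pax6 of eye, Lhx2, Lhx5, Isl1, Six2, Nkx2-1, Nkx2-5, Msx1, Dlx1, Dlx2, Otp and Barx1, and the paired box factor Pax9. They also included the T-box factors T (Brachyury) of mesoderm, Tbx3, Tbx5 of heart and forelimb, and Tbx15, and the helix-loop-helix factors Hand1 and Hand2 of heart, Neurog1 and Neurog2 of neurons, and Twist1. The remaining genes were Foxa1 and Foxa2 of liver and gut, Sox9, Sox17, Gata4 and Gata6 of heart and endoderm, and Wt1 of kidney. The highest value among them was Pax6 on KO MDS array 1, at -1.13 without the call. Under a looser call, a signal positive and significantly above the local background, 22 of these 31 were seen on at least 1 array, where 75.9% of all named genes that were well above background on no array were. This brought the count of the 44 to 35, against 92.7% of all named genes. All 10 arrays gave this call for 5 of the 44, against 57.3% of all named genes. It was given for 17 of the 44 on the KO array at 3 months, with 72.2% of all named genes, for 18 on the mixed KO array, with 72.8%, and for 20 on the undetermined KO array, with 74.0%. The MDS arrays both held 14, with 74.5% and 74.6%, and the MDS/MPN arrays held 11, 17 and 16, with 69.5%, 77.5% and 74.1%. The WT arrays held 18 and 17 at 3 and 9-12 months, with 73.5% and 74.9%.

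The 6 single-mouse KO arrays of 9-12 months were then tested against the WT array of their slide, and the mixed array was left out. A feature was tested if at least 50% of the arrays in 1 compared group called it well above background. Of 19595 such features, 115 (0.587%) passed an adjusted p of 0.05, 1 higher and 114 lower in KO. The filter admitted any feature measured on the single WT array, also where no KO array measured it. With features measured on every array the count was 0, and it was also 0 without MDS array 1 or without MDS/MPN array 3. Of the 44 developmental factors 4 could be tested and 0 passed (limma, Benjamini-Hochberg over all features), with 1, Msx2, under an unadjusted p of 0.05. Their median difference was -0.34, against -0.01 over all features, and the number of arrays limits the precision. Markers of mature lineages had a median difference of 3.41 in the same comparison over the 5 tested, of which 2 had an unadjusted p under 0.05 and 0 passed in limma. Of the 5, 4 were higher in KO. Hba-a1 read 4.80, 5.59, 3.67, -1.38, 3.64 and 4.97 on the 6 KO arrays in the order MDS 1 and 2, MDS/MPN 1 to 3 and undetermined, against -1.99 on the WT array. Itgam went the other way, with 5.23, 5.30, 4.97, 5.25, 5.05 and 4.39 in that order, against 5.38 on the WT array. Per array 4 to 6 of the 7 lineage markers were measured on these KO arrays, against 3 on the WT array. The 8 LSK markers had a median difference of -0.45, and 0 passed. The part of such cells in the differences below was not tested.
Msx2 averaged -0.46 ± 0.61 in KO (SD, n = 6), against 1.13 on the WT array, a difference of -1.59 ± 0.62 (SE, limma adjusted p = 0.822, and 0.138 to 1 under the alternatives). It was below the WT array in 6 of 6 KO arrays, as were 13.9% of all features tested. This held on both lines of the slide. Adding the mixed KO array, at 1.11, gave -1.36, and both WT arrays as 1 group gave -0.50. Taking the times from the value table turned the difference to 0.59. By that table the WT array of the other slide enters this test, so genotype and slide cannot be told apart in it.
The other 3 factors differed by less than their error. Nkx2-2 averaged -0.88 ± 0.98 in KO and -0.59 in WT (difference -0.29 ± 0.88, limma adjusted p = 0.9999). Sox1 averaged -0.86 ± 0.85 in KO and -0.46 in WT (difference -0.40 ± 0.79, limma adjusted p = 0.9999). Zic1, well above background on 4 of the 6 KO arrays, averaged -2.38 ± 0.63 in KO and -2.17 in WT (difference -0.21 ± 0.63, limma adjusted p = 0.9999). Without MDS/MPN array 2 the difference was 0.08 for Nkx2-2, -0.09 for Sox1 and -0.02 for Zic1. The WT arm had 1 array, whose spread was taken to be that of the KO arrays.

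**Figure D5:**
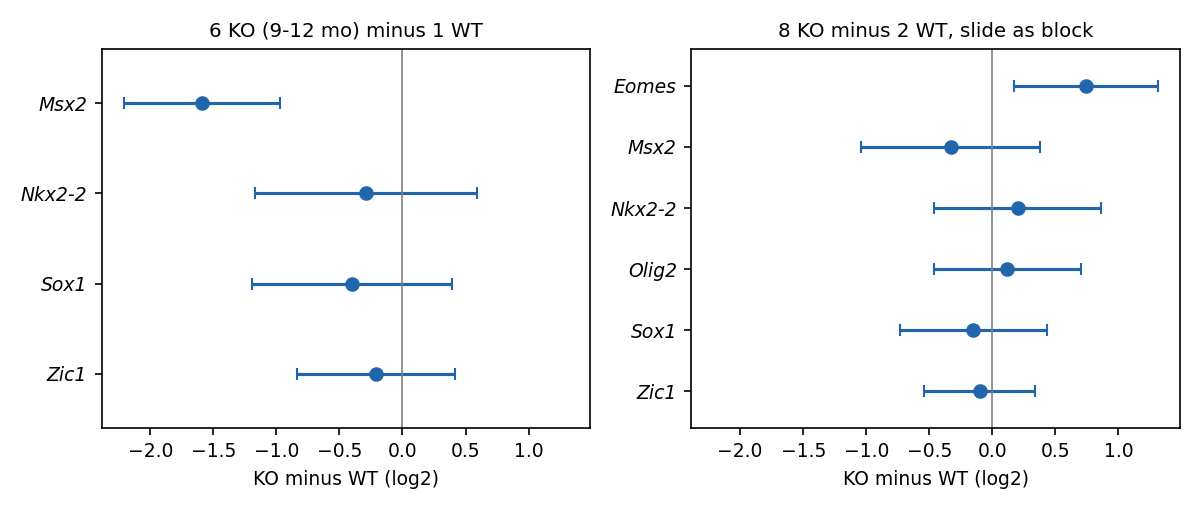
KO minus WT difference (log2, x axis, point with SE) for each developmental factor that could be tested (y axis), on the left for 6 single-mouse KO arrays against 1 WT array at 9-12 months and on the right for 8 KO against 2 WT arrays with slide as a block. Msx2 lies at -1.59 on the left and -0.33 on the right, and the intervals of 1 SE of Nkx2-2, Sox1 and Zic1 include 0 in both.

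A fit of all 8 KO and both WT arrays with slide as a block does not use the time labels. In it 0 of 22365 features passed in limma (0%), and 0 of 6 developmental factors. Without adjustment 424 features were higher and 814 lower in KO, with 0 of the 6 factors among them. The median of the 6 was 0.01, against 0.03 over all features. Eomes had 0.74 ± 0.57 (SE, limma adjusted p = 0.968), measured on 2 of 8 KO arrays and 1 of 2 WT arrays. Msx2 had -0.33 ± 0.71 (limma adjusted p = 0.992), which joins -1.36 on the slide of the 9-12-month arrays with 1.49 on the slide of the 3-month arrays. Nkx2-2 had 0.20 ± 0.66, Sox1 -0.15 ± 0.58, Zic1 -0.10 ± 0.44 and Olig2 0.12 ± 0.58, with adjusted p of 0.997 to 0.999 in limma. Each of these errors was larger than the difference except that of Eomes. Eomes and Olig2 entered this test through the WT array at 3 months, on which both were measured.

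Whether the KO effect differed between 9-12 and 3 months was tested as the later difference minus the earlier. It passed for 0 of 23296 features (0%), with 556 higher and 604 lower without adjustment, and for 0 of 7 developmental factors in limma. Msx2 had -3.07 ± 1.03 (SE, limma adjusted p = 0.739), with an unadjusted p under 0.05, and turned to 0.61 when times were taken from the value table. By that table the later difference is taken between slides. With the times of the scans, Nkx2-2 had -1.28 ± 1.46, Sox1 -0.76 ± 1.31 and Zic1 -0.31 ± 1.05. Nkx6-1, Olig2 and Eomes entered through the 3-month arrays and were measured at 9-12 months on 0, 0 and 1 of the 6 KO arrays and not on the WT array, so their differences are not read. All arms but that of the 6 KO arrays held 1 array, and the spread was taken from those 6.

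Within KO, the 3 MDS/MPN arrays were compared with the 2 MDS arrays. In limma 0 of 20722 features passed (0%), with 308 higher and 613 lower without adjustment, and 0 of 4 developmental factors. Without MDS/MPN array 2 the unadjusted counts were 4086 higher and 2387 lower, and without MDS/MPN array 3 they were 785 and 338, with 0 passing in both. Msx2 averaged -0.72 ± 0.84 in MDS/MPN and -0.12 in MDS (difference -0.60 ± 0.55, limma adjusted p = 0.992). Nkx2-2 averaged -1.04 ± 1.49 in MDS/MPN and -0.93 in MDS, Sox1 -1.13 ± 1.10 and -0.75, and Zic1 -2.44 ± 0.78 and -2.64, with differences of -0.11 ± 0.86, -0.39 ± 0.73 and 0.19 ± 0.53. MDS/MPN array 2 held the lowest of the 5 scaled values for each of the 4 genes. Without that array the differences were -0.12 for Msx2, 0.74 for Nkx2-2, 0.25 for Sox1 and 0.64 for Zic1. Before scaling, its value was still the lowest of the 5 for Nkx2-2 (45.2 intensity units) and Sox1 (57.1). For Msx2 it was 93.4, above MDS/MPN arrays 1 and 3 (74.4 and 83.3), and for Zic1 it was the highest of all arrays, at 30.1. The MDS arrays lay on the first line of the slide and the MDS/MPN arrays on the other, so line and disease cannot be told apart.

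Of the 100 other developmental factors, 13 could be tested at 9-12 months, with 1 called lower in KO and 0 higher. That gene was Pou3f2, a neural POU factor, at -5.02 ± 0.83 (SE, limma adjusted p = 0.0423), which was measured on 1 array in all, the WT array at 9-12 months, at 0.89 by 1 of its 3 probes, so it passed the filter through that array alone and had to differ. Over all 8 KO and both WT arrays 18 of them could be tested and 0 were called. Of these other factors Foxl2, a forkhead factor of the ovary, read 6.25 to 8.03 on the KO arrays and 6.81 and 7.52 on the WT arrays. Gata5, Vax2 and Dlx3 were also measured on all 10 arrays. Blood transcription factors were called in 0 of 39 tests at 9-12 months and 0 of 40 with both slides, with medians of 0.06 and 0.09, and PRC2 subunits in 0 of 11 in either comparison.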

How the data were processed

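RNA of 10 samples, 1 array each, was labelled with Cy3 from 0.02 µg and scanned on 1-colour Agilent arrays. Each deposited scan lists spot intensity values and calls, made per the file headers by Feature Extraction 10.7.1.1 (the submitters' processing notes name 9.1). Per the file headers it is background-subtracted and detrended, and a floor replaces low values. The authors' value table holds a ratio, found to be that intensity over the 75th percentile of the array. Each of its columns matched 1 scan with an SD of the log2 ratio of at most 0.0018, and the next scan with at least 0.633.

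Control and outlier spots were left out and spots of a probe averaged. Of 55681 probes, 27656 were named by 1 symbol through RefSeq accessions (GRCm38.p6, for names and positions; the array annotation is on mm9, per the file headers). A member was named with its values if it was measured on at least 1 array. Tests used limma 3.58.1 in R 4.3.3 on log2 values, keeping features called well above background by at least 50% of the arrays in 1 compared group, and the script was tested on simulated data. Counts, motif searches and figures used matplotlib 3.10.9, pandas 2.3.3 and numpy 2.4.6 in Python 3.11.15. Alternatives changed the scaling, background correction, filter, probe choice, variance model, time labels and arrays used. The members and lists were chosen with earlier results of these data known. Where the probes lie in their transcripts was not analysed here.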

Additional observations from a re-analysis of the deposited data

Results flagged for a closer look

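Dixon's test was run on 27 sets: the values of each of the 13 measured factors over the 6 single-mouse KO arrays and over all 8, and the number of factors measured on the 8. A highest or lowest value was set apart in 7 of them. The sets of 6 lie within those of 8, so the sets are not independent draws. Irx3, Otx2 and Pax2 entered because 1 array measured them, so their high value on that array is no separate result. The 7 are therefore not set against a chance rate. Low values came from KO MDS/MPN array 2: Nkx2-2 at -2.74, next to -0.94, among both the 6 KO arrays of single mice and all 8, and Msx2 at -1.69, next to -0.32, among the 6. High values came from arrays where the gene was measured alone. Irx3 stood at 1.26 on the undetermined array, next to -3.61, in both sets. Otx2 stood at 0.88, next to -3.43, and Pax2 at -0.86, next to -3.66, on the mixed KO array among all 8. These arrays and their marker levels are described with the genes above, and no cause was tested.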

How the results depend on the processing

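No developmental factor passed the threshold in any of 71 fits. Of 341 alternative differences of these genes, 38 turned direction. Some alternatives repeat 1 estimate, so these are not separate checks. With slide as a block, leaving out either 3-month array gives the difference on the slide of the 9-12-month arrays alone. Adding the mixed array to the test at 9-12 months gives that difference too. With the time labels of the value table, the 9-12-month difference was 0.59 for Msx2 and 1.03 for Nkx2-2, and the later minus the earlier KO effect was 0.37 for Eomes, 0.61 for Msx2, 1.07 for Nkx2-2, 0.54 for Sox1 and 0.18 for Zic1. By those labels the single-mouse KO arrays and the WT array of 9-12 months lie on different slides, so genotype and slide cannot be told apart in these values. At 9-12 months Nkx2-2 also gave 0.08 without MDS/MPN array 2 and 0.37 with both WT arrays as 1 group, Sox1 gave 0.41 with the median probe and Zic1 gave 0.05 with normexp. With both slides, leaving out the WT array at 9-12 months gave 1.49 for Msx2, -0.24 for Olig2, 0.37 for Sox1 and 0.10 for Zic1. With slide as a block, these equal the 3-month KO array minus the 3-month WT array, 1 array against 1. Leaving out MDS/MPN array 2 gave 0.01 for Sox1 and for Zic1. Nkx2-2 gave -0.25 on the slide of the 9-12-month arrays alone. Leaving out either 3-month array gave the same estimate, because the block then takes up the remaining array of that slide. With the percentile over probes measured on all arrays Nkx2-2 gave -0.00. Olig2 gave -0.08 with that percentile, -0.01 with normexp and -0.14 with no slide block, Sox1 gave 0.51 with the median probe and Zic1 gave 0.02 with normexp. For MDS/MPN against MDS, Nkx2-2 gave 0.07 with normexp, 0.02 with the median probe and 0.74 without MDS/MPN array 2. Sox1 gave 0.17 without MDS array 1 and 0.25 without MDS/MPN array 2, and Zic1 gave -0.03 without MDS array 1 and -0.10 without MDS/MPN array 3. In the difference between times, Eomes gave 0.10 with quantile normalization, 0.01 with that percentile and 0.14 with no scaling, and Zic1 gave 0.08 with normexp and 0.07 with no scaling. The causes were not tested, beyond the arrays and values each setting changes.

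The count of 115 called features at 9-12 months was 247 with quantile normalization, 212 with the percentile over probes measured on all arrays, 224 with no scaling, an alternative chosen after seeing the data, 50 with no filter, 182 with the mixed array added, and 0 with features measured on every array, with limma's trend and robust options and with both WT arrays as 1 group. Leaving out 1 KO array gave 0 to 215, with 0 without MDS array 1 or MDS/MPN array 3, 4 without MDS array 2, 12 without the undetermined array and 215 without MDS/MPN array 2. With both slides the count of 0 was 3 with quantile normalization and with the other percentile, 2 with no slide block, 182 on the slide of the 9-12-month arrays alone, and 0 to 177 without 1 array (177 without the 3-month WT array, 154 without the 3-month KO array). For the difference between times it was 184 with quantile normalization, 2 with the labels of the value table and 0 without any 1 array, and for MDS/MPN against MDS it was 0 throughout. The counts with the mixed array added, on the slide of the 9-12-month arrays alone and without either 3-month array rest on the same differences. They are not separate checks. With the positive and significant call, 35 factors were seen on at least 1 array and 5 on all 10. By array the counts were 17 at 3 months, 18 for mixed, 14 and 14 for MDS, 11, 17 and 16 for MDS/MPN and 20 for undetermined among KO arrays, and 18 at 3 months and 17 at 9-12 months among WT arrays. Leaving out 1 array, also chosen after seeing the data, left 9 to 13 factors on at least 1 array, 9 without the mixed KO array, and 3 on every array. No paired analysis was possible because the labels give no replicate numbers that pair the samples, and slide was the only block used. Without 1 array in turn, Nkx2-2 at 9-12 months ran from -0.47 to 0.08. With both slides Msx2 ran from -1.36 to 1.49, Nkx2-2 from -0.25 to 1.0, Olig2 from -0.24 to 0.33, Sox1 from -0.45 to 0.37 and Zic1 from -0.21 to 0.10. Both ends of each of these ranges come from fits in which the block leaves the KO effect to 1 slide alone. For MDS/MPN against MDS, Nkx2-2 ran from -0.63 to 0.74, Sox1 from -0.94 to 0.25 and Zic1 from -0.10 to 0.64. Signal over background limits what the 31 unmeasured genes show.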
